A study of Mus musculus with 90 samples.

Results

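CD8 T cells that had entered a tumour but carried neither PD-1 nor TIM-3 (NEG) were compared with CD8 T cells of a non-draining lymph node (NDLN) in DKO mice. The 8 libraries were chosen by their titles, with no measured value used: 4 NEG and 4 NDLN libraries of the DKO genotype, of 90 libraries in the series. Per the labels, mice of 4 genotypes (yfp, Il10, Ebi3L and DKO) gave tumour CD8 T cells in 4 classes of PD-1 and TIM-3 staining and CD8 T cells of a non-draining node. The series' design text describes Treg-specific knockouts of IL10, of IL35 and of both. Both groups compared here came from the same genotype and differed in tissue. They differed in the sort as well, since the labels give the node libraries no PD-1 or TIM-3 class. Tissue and gate therefore cannot be told apart in any result below. A Treg is a regulatory T cell. The sources used here give no tumour model, no age or sex of the mice and no promoter for the deletion. Cells were sorted in 2 rounds and cDNA was made with a SMART-Seq kit of version 3. The 4 sources, each giving 1 NEG and 1 NDLN library, are numbered 1 to 4, and the labels put source 2 in batch 2 and the others in batch 1. Whether the sources were separate animals is not stated, so the spread behind each p-value, that of these samples, may be technical in part.

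As background, a naive CD8 T cell circulates between blood and lymph nodes by means of the chemokine receptor Ccr7 and the lipid receptor S1pr1, and is kept quiescent by factors such as Klf2, Lef1 and Tcf7. After antigen or cytokine stimulation the cell raises adhesion molecules, inflammatory chemokine receptors and granule proteins, and continued antigen in a tumour induces PD-1 and then TIM-3 along a path to exhaustion. The PD-1 and TIM-3 negative gate therefore keeps tumour cells that carry neither marker of that path. IL-10 and IL-35 are inhibitory cytokines of Tregs, and both signal through STAT proteins.

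The 8 libraries held 19.2 to 24.7 M counts and 11974 to 12463 genes with a count, and a level of 3 counts was 0.122 to 0.156 CPM (counts over the library total in M). The sort genes went with the labels: Pdcd1, which encodes PD-1, was at 1.24, 21.5, 3.01 and 10.3 CPM in NEG sources 1 to 4 and at 6.51, 42.2, 9.44 and 10.9 CPM in NDLN. Pdcd1 averaged 1569 ± 230 CPM (SD, n = 4) in the PD-1 high, TIM-3 positive tumour cells (DP) of the same genotype. Havcr2, which encodes TIM-3, stayed below the filter on low counts, with at most 11 CPM in NEG and 0.527 CPM in NDLN. Cd8a was at 745 to 1060 CPM in NEG and 1095 to 1283 CPM in NDLN, and Cd4 had 0 counts in all 8 libraries. Il10 and Ebi3, genes deleted in Tregs in these mice, lay at or below 0.428 CPM in these CD8 libraries, which says nothing of the deletion.

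Of 23420 genes in the table, 11115 passed the filter, and 313 rose and 169 fell in NEG at an adjusted p below 0.05 (edgeR's quasi-likelihood test with the source as a block and Benjamini-Hochberg adjustment). That is 4.34% of the genes tested (2.82% higher and 1.52% lower), and the median log2 fold change of all tested genes was near 0 (-0.00081). All log2 fold changes below are NEG against NDLN, given ± SE (n = 4 and 4), and "rose" or "fell" means that a gene passed this test. Every group of genes below is set against that 4.34%. The gene lists were chosen with earlier results of these data known, so a share above 4.34% is a description and not a test. The 4 NEG libraries lay wholly above or wholly below the 4 NDLN libraries for 1340 genes, 12.1% of those tested (570 higher, 5.13%, and 770 lower, 6.93%). With any 1 source left out, 228 to 346 genes were called, and 157 genes (104 higher, 53 lower) were called in all 4 such fits. A gene whose call was lost in such a fit is named in its paragraph with the highest adjusted p it reached.

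The naive and stem-like programme was the list with most genes that fell. Of its 22 tested genes, 12 fell and 2 rose, with a median log2 fold change of -0.49. Lef1, a transcription factor of naive and memory T cells, was at 360, 360, 318 and 310 CPM in NEG and at 616, 609, 603 and 560 CPM in NDLN, a log2 fold change of -0.76 ± 0.08 (adjusted p = 0.00267). The groups did not overlap, and each was tight. Lef1 was called in every fit of 3 sources and in 10 of all 11 alternative fits. Dapl1, a gene abundant in naive CD8 T cells, was at 89.6, 77.6, 61.3 and 49.5 CPM in NEG and 282, 293, 249 and 181 CPM in NDLN (-1.80 ± 0.12, adjusted p = 4.46e-04). The actin crosslinker Actn1 fell by 1.17 ± 0.14 on the log2 scale, and the inhibitor of E proteins Id3 fell by 1.11 ± 0.19. Its relative Id2, which promotes effector cells, rose by 1.05 ± 0.24, with 834 CPM in NEG source 4 and 306 to 418 CPM in the other NEG libraries. Without 1 source the calls of Id3 (sources 2, 3 or 4; adjusted p up to 0.0773) and Id2 (sources 2, 3 or 4; up to 0.160) were lost. In those fits 6 to 8 genes of the list fell.

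The recirculation genes did not move as a block. Ccr7 differed by -0.09 ± 0.09, the quiescence factor Klf2 by -0.07 ± 0.13, Tcf7 by -0.14 ± 0.09 and the IL-7 receptor gene Il7r by -0.03 ± 0.09, and the 2 groups overlapped for each. Their adjusted p-values were 0.425 to 0.909. S1pr1, the receptor for exit from tissue, was at 281, 264, 360 and 234 CPM in NEG and at 494, 482, 628 and 523 CPM in NDLN (-0.85 ± 0.09, adjusted p = 0.00344). With all 20 DKO libraries in the fit the S1pr1 difference was -0.82 and was not called (adjusted p = 0.314). Cd69, whose protein pulls S1pr1 protein from the surface, was at 522, 500, 917 and 759 CPM in NEG against 280, 178, 235 and 211 CPM (1.62 ± 0.17, adjusted p = 0.00248). Those were the 2 genes called among 11 tested genes of the egress list. NEG cells in the tumour held Ccr7 at 541 ± 65.6 CPM (601 ± 69.8 CPM in NDLN, SD, n = 4) and Tcf7 at 671 ± 47.5 CPM (776 ± 83.7 CPM), while S1pr1 and Lef1 were below every node library.

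**Figure D1:**
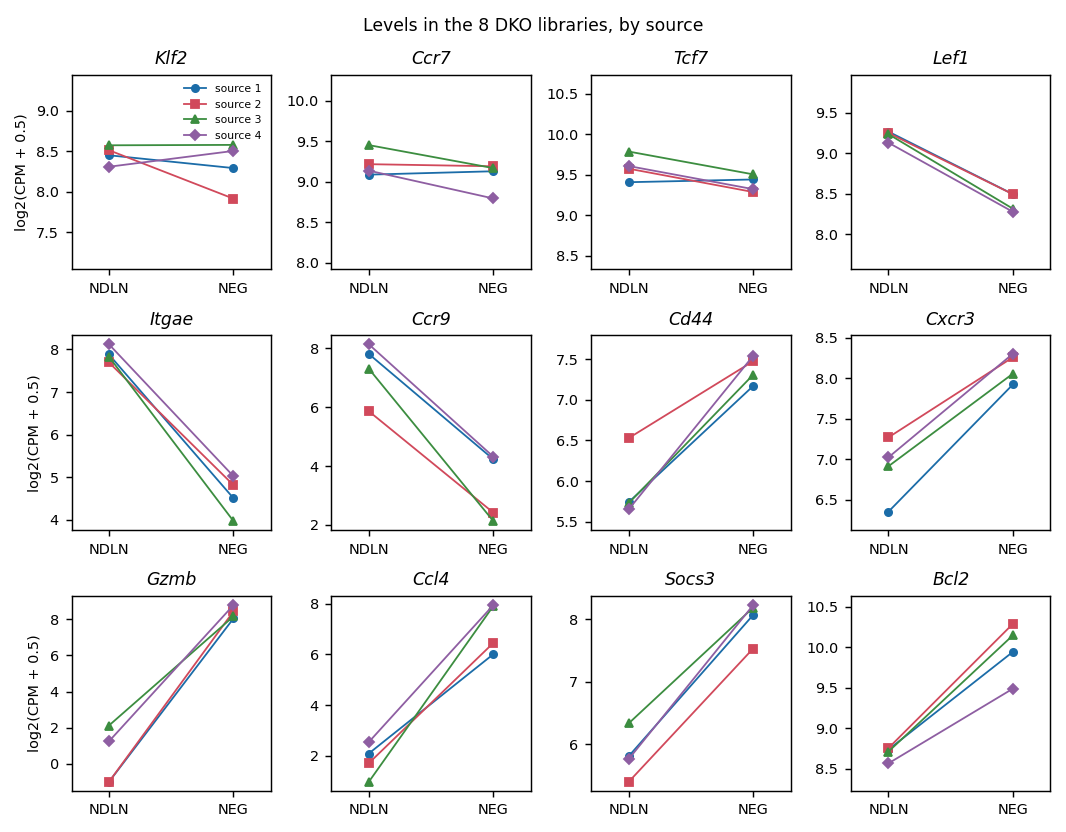
Level of 12 genes as log2(CPM + 0.5) in the 4 node (NDLN) and 4 tumour (NEG) libraries of DKO mice, with a line joining the libraries of 1 source. Klf2, Ccr7 and Tcf7 overlap between the groups, Lef1, Itgae and Ccr9 are lower in each NEG library, and Cd44, Cxcr3, Gzmb, Ccl4, Socs3 and Bcl2 are higher in each NEG library than in every node library.

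Homing receptors for gut and skin epithelium were among the genes that fell furthest. Ccr9, the receptor for the gut chemokine CCL25, was at 18.3, 4.84, 3.88 and 19.5 CPM in NEG and 224, 57.8, 158 and 282 CPM in NDLN (-4.00 ± 0.31, adjusted p = 0.00114). Itgae encodes CD103, the integrin that binds E-cadherin and marks many resident T cells, and also many naive CD8 T cells in the mouse. It was at 22.2, 27.6, 15.2 and 32.0 CPM in NEG and 235, 207, 227 and 278 CPM in NDLN (-3.27 ± 0.19, adjusted p = 2.88e-04), so the lowest node library was above the highest NEG library by a wide margin. Of 16 tested residency genes 6 rose, Itgae was the 1 that fell and 9 were not called. The log2 fold change was positive for 13 of the 16 and negative for 3, with a median of 1.83. Rgs1, which dampens chemokine receptor signalling, was at 195, 85.7, 272 and 204 CPM in NEG and 27.6, 17.6, 13.3 and 12.5 CPM in NDLN (3.43 ± 0.36). The collagen-binding integrin Itga1 rose by 6.94 ± 1.35, unevenly, from 1.23 CPM in NEG source 2 to 45.2 CPM in source 4, and the aryl hydrocarbon receptor Ahr rose by 3.95 ± 0.79. Groups overlapped for both, and both calls were lost without 1 source (Itga1 without 1, 2 or 4, adjusted p up to 0.0842; Ahr without 1, 3 or 4, up to 0.112). The count of residency genes that rose was 2 without source 1 or source 4 and 4 without source 3.

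Of 13 tested chemokine receptors 5 rose and 2 fell, 7 were positive and 6 negative in the fit, and the median was 0.90. Fits of 3 sources had 3 that rose without source 1, 3 or 4 and 4 without source 2. Cxcr3, the receptor for interferon-induced chemokines, was at 243, 306, 266 and 316 CPM in NEG and 81.3, 154, 120 and 130 CPM in NDLN (1.31 ± 0.13, adjusted p = 0.00204). Ccr2 was at 113, 79.2, 74.9 and 262 CPM against 3.07 to 16 CPM in NDLN (3.76 ± 0.50), with source 4 the highest. The follicle-homing receptor Cxcr5 rose by 1.63 ± 0.36, and NEG lay above NDLN in every library. The call of Cxcr5 was lost without any 1 source (adjusted p up to 0.134). Cxcr6 was not called (-0.15 ± 0.28), with 1073 CPM in NEG source 4 and 243 to 495 CPM in the others. Among adhesion genes Cd44, the hyaluronan receptor of antigen-experienced cells, was at 144, 178, 158 and 186 CPM in NEG against 52.9, 91.9, 52.4 and 49.7 CPM (1.54 ± 0.17, adjusted p = 0.00333). The integrin chain Itgb1 rose by 1.33 ± 0.24 (lost without source 1, 3 or 4, adjusted p up to 0.0833). In the adhesion list 4 of 21 tested genes rose and 3 fell, and 2 rose without source 1 or 4 and 1 fell without source 3.

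Granzyme genes were near 0 in the node and present in every NEG library. Gzmb, the granzyme that triggers apoptosis in target cells, was at 264, 346, 286 and 441 CPM in NEG and at 0, 0, 3.84 and 1.87 CPM in NDLN (8.26 ± 1.01, adjusted p = 0.0170). Gzma was at 37.3, 55.0, 97.5 and 358 CPM against 1.93, 3.1, 0.427 and 1.18 CPM (6.02 ± 0.89). Source 4 gave most of the NEG mean of Gzma, and the groups of neither granzyme overlapped. Serpinb9, an inhibitor that protects the killer cell from its own granzyme B, rose by 1.22 ± 0.19 and its relative Serpinb6b by 1.38 ± 0.18. The pore-forming perforin Prf1 was not called (-0.37 ± 0.14, adjusted p = 0.203), with 67.1 to 109 CPM in NEG and 92.2 to 118 CPM in NDLN. Ifng and Gzmk were not called either: Ifng was at 5.14, 4.33, 56.8 and 123 CPM in NEG and at most 6.99 CPM in NDLN, and Gzmk at 2.67, 3.31, 18.6 and 84.7 CPM and at most 2.76 CPM. For both, sources 3 and 4 were high and sources 1 and 2 were in the range of the node or near it. Of 21 tested cytotoxic genes 7 rose and 0 fell (median 0.94), and 5 to 9 rose with 1 source left out. Calls were lost with 1 source left out, at similar fold changes, for Gzmb (without 4, 8.44, adjusted p = 0.0839), Gzma (without 3, 5.50, 0.0945) and Serpinb9 (without 4, 1.18, 0.0586).

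The chemokine ligands of this list attract other T cells, monocytes and dendritic cells. Ccl3 was at 16.4, 8.50, 14 and 18.3 CPM in NEG and had 1 count in the 4 NDLN libraries together. The ratio of the pooled levels was 1247 (95% counting interval 223 to 49275), and the test gave an adjusted p of 0.00177. Ccl4 was at 64.0, 87.2, 241 and 247 CPM against 3.75, 2.76, 1.45 and 5.31 CPM (5.51 ± 0.50). Xcl1, the ligand for cross-presenting dendritic cells, rose by 2.62 ± 0.49 (lost without source 1, 3 or 4, adjusted p up to 0.0886). Ccl5 was at 559, 506, 1837 and 2988 CPM against 85.2, 316, 185 and 114 CPM, which did not pass (2.95 ± 0.76, adjusted p = 0.129) although no NEG library overlapped the node. Altogether 3 of 5 tested ligands rose, and 5 of 5 rose without source 2. For Ccl4, Ccl5, Gzmk, Ifng and Klrk1 the NEG libraries of sources 3 and 4 were above those of sources 1 and 2.

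Other genes had almost no node signal. Cables1, a regulator of cyclin-dependent kinases, was at 28.8, 35.6, 58.4 and 43.7 CPM in NEG and had 2 counts in the 4 node libraries, a pooled ratio of 1827 (505 to 15092). Metrnl, a secreted cytokine, was at 17, 23.1, 32.4 and 18.3 CPM with 3 node counts (663, 227 to 3218). Cd244, the SLAM receptor 2B4, was at 2.67, 4.25, 34.1 and 5.08 CPM with 2 node counts (498, 138 to 4118), so source 3 gave most of its level, and without that source its call was lost (adjusted p = 0.0814). Those 3 intervals cover counting error only. Fgl2, a secreted fibrinogen-like protein, rose by 8.3 ± 1.15, the integrin Itgax (CD11c) by 8.2 ± 1.49 and Bspry by 8.09 ± 1.37. Gp49a, an immunoglobulin-like receptor gene with a near-identical neighbour, rose by 7.24 ± 1.16. Itgax was uneven, at 7.38, 2.51, 16.3 and 49.9 CPM in NEG, and was at most 0.197 CPM in NDLN. Missing the threshold with 1 source left out were Itgax (without 1, 3 or 4, adjusted p up to 0.112), Bspry (without 1, 3 or 4, up to 0.0633) and Gp49a (without 2, 0.132).

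Among genes with a node mean of at least 10 CPM, the other large falls included 7 genes of varied or unknown role. Dtx1, a regulator of Notch signalling, was at 24.2, 17, 11.5 and 18.1 CPM in NEG and 128, 117, 136 and 135 CPM in NDLN (-2.84 ± 0.22, adjusted p = 0.00104). Rgcc, a cell cycle regulator, was at 62.2, 33.2, 40.9 and 31.1 CPM against 208, 239, 283 and 207 CPM (-2.47 ± 0.21). The AMP deaminase Ampd1 fell by 3.17 ± 0.48, Tmie by 2.92 ± 0.39, Xkrx by 3.81 ± 0.57, Zfp719 by 2.48 ± 0.43 and the noncoding gene D930028M14Rik by 4.67 ± 1.02. All 7 of these genes separated the groups with no overlap. Lost calls were those of Xkrx (without 3, adjusted p = 0.0516), Zfp719 (without 3 or 4, up to 0.0734) and D930028M14Rik (without 1 or 3, up to 0.147).

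Killer lectin-like receptors, the activating and inhibitory receptors shared by NK cells and some CD8 T cells, were higher in NEG in the fit for all 13 tested members, and 5 rose. Their median log2 fold change was 3.79, and 4, 5, 2 and 3 rose without source 1, 2, 3 and 4. Klrc1, which encodes the inhibitory chain NKG2A, was at 64.8, 57.6, 142 and 231 CPM in NEG and 0.625, 4.82, 3.46 and 4.78 CPM in NDLN (5.26 ± 0.47, adjusted p = 0.00170). Klrk1, which encodes the activating NKG2D, was at 73.1, 55.6, 347 and 328 CPM against 24.6, 24.8, 41.3 and 39.9 CPM (2.29 ± 0.35). Sources 3 and 4 were several times above sources 1 and 2 for Klrk1, yet every NEG library exceeded every node library. Klra1 rose by 6.91 ± 1.2 and Klrc2 by 3.99 ± 0.81, and both calls were lost without source 1, 3 or 4 (adjusted p up to 0.0533 and 0.205). The Klra and Klrc genes have close copies whose reads the counting could split. NK and innate markers moved with this group: 2 of 6 tested (Gzma and Fcer1g) rose, and their summed level was 267 to 575 CPM in NEG against 113 to 159 CPM in NDLN. Of the defining NK genes, Klra4 was at 0 in all 8 libraries, Ncr1 averaged 0.263 CPM and Klra8 0.0595 CPM in NEG, and Klrb1c averaged 29.3 CPM in NEG and 4.49 CPM in NDLN without passing the test (adjusted p = 0.0926). Their part in the result was not tested.

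Markers of γδ T cells moved too. The scavenger receptor gene Cd163l1 was at 145, 161, 167 and 140 CPM in NEG and 10.3, 45.4, 46.2 and 6.32 CPM in NDLN (3.01 ± 0.48, adjusted p = 0.0138), and its relative 5830411N06Rik was at 102, 295, 82.5 and 128 CPM against 7.6, 60.2, 42.5 and 40.7 CPM (2.18 ± 0.40). Both are scavenger receptor genes of similar sequence, known from γδ T cells. Of 11 markers listed only 7 were in the table, and these 2 passed the filter. The list also named the receptor-chain genes Trdc, Trgc1, Trgc2 and Trdv4, and no value of those is given here. Sox13 and Il17a, which define subsets of those cells, were at 0 in all 8 libraries. The summed markers ran from 247 to 456 CPM in NEG and from 17.9 to 106 CPM in NDLN, and whether γδ T cells gave the 2 calls was not tested. The call of Cd163l1 was lost without source 1 (adjusted p = 0.0528) and that of 5830411N06Rik without source 2 or 4 (up to 0.104). In bulk libraries, more cells of a type and more RNA per cell cannot be told apart.

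Inhibitory receptors other than the gate genes changed in part: 4 of 16 tested rose and 1 fell, with a median of 0.48. Tigit was at 9.28, 45.4, 28.2 and 49.6 CPM in NEG and 0, 6, 1.88 and 5.11 CPM in NDLN (3.97 ± 0.69, adjusted p = 0.0198). Cd160 was at 105, 136, 171 and 185 CPM against 29.6, 63.7, 51.3 and 90.3 CPM (1.49 ± 0.18). Nt5e, which encodes the adenosine-forming enzyme CD73, rose by 1.26 ± 0.28, and Cd96 fell by 0.58 ± 0.11 on the log2 scale. Lag3 stayed at or below 1.79 CPM in all 8 libraries, and Ctla4 differed by 2.61 ± 0.71 (adjusted p = 0.0855). Pdcd1, the gate gene, was lower in NEG than in the node library of its own source in 4 of 4 sources, though the groups overlapped (-1.19 ± 0.45, adjusted p = 0.197). The test was missed in fits of 3 sources by Tigit (without 3 or 4, adjusted p up to 0.0761), Nt5e (without 1, 2 or 3, up to 0.125) and Cd96 (without 1, 2 or 4, up to 0.0917), and the number of receptors that rose fell to 1 without source 3.

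Among transcription factors of effector and exhausted cells, 6 of 23 tested rose and 0 fell (median 0.98). Tbx21, which encodes T-bet, the factor of type 1 effector cells, was at 76.1, 75.8, 78.6 and 97.6 CPM in NEG and 14.4, 19.2, 21.8 and 15.9 CPM in NDLN (2.27 ± 0.20, adjusted p = 0.00170). Nr4a1, an immediate product of T cell receptor signalling, was at 66.0, 30.0, 70.6 and 45.0 CPM against 4.11, 9.99, 3.97 and 8.64 CPM (3.09 ± 0.48). Irf8 rose by 2.50 ± 0.38 and Nfil3 by 2.58 ± 0.42. Eomes (0.58 ± 0.22), Prdm1 (1.97 ± 1.04) and Tox (-0.81 ± 0.22) did not pass, with adjusted p-values of 0.191, 0.357 and 0.0808. Tox, the factor of the exhausted state, was at 46.6, 24, 52.7 and 30.3 CPM in NEG and 71.9, 47.4, 68.8 and 86.1 CPM in NDLN, so it was not above the node in any source. Calls were lost for Nr4a1 (without 1, adjusted p = 0.0505), Irf8 (without 4, 0.0510) and Nfil3 (without 1, 3 or 4, up to 0.0616), and 2 factors rose without source 4.

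**Figure D2:**
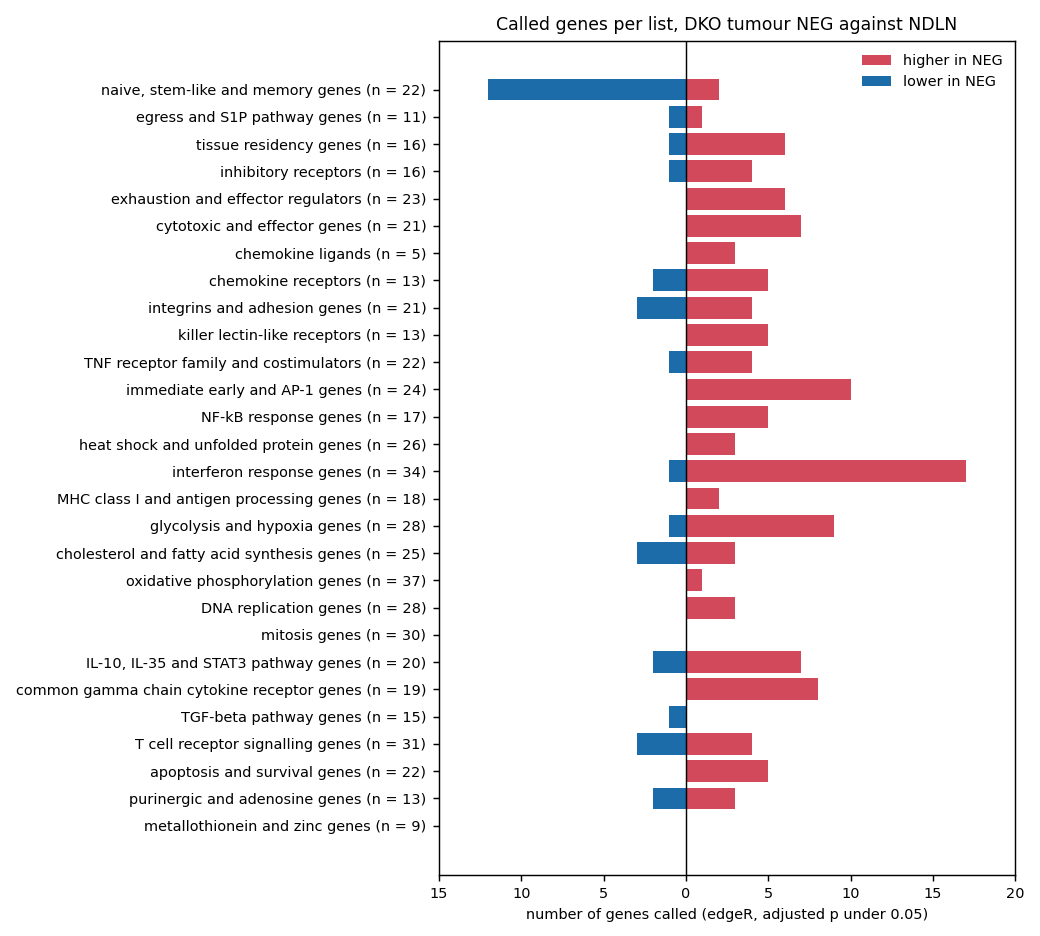
Number of genes that rose (right) or fell (left) in NEG against NDLN in each of 28 gene lists, with the number tested in brackets. Naive genes hold the most that fell (12 of 22), interferon response genes the most that rose (17 of 34), and no mitosis or metallothionein gene passed.

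Immediate early genes, switched on within minutes of a signal, rose: 10 of 24 tested, with 0 that fell and a median of 1.43. Fosl2, a partner in the AP-1 complex, was at 47.6, 49.0, 72.5 and 48.0 CPM in NEG and 6.25, 5.17, 3.89 and 4.34 CPM in NDLN (3.52 ± 0.29, adjusted p = 0.00140). The phosphatase Dusp1 was at 249, 180, 392 and 401 CPM against 59.8, 3.44, 7.01 and 9.77 CPM (4.86 ± 0.81), and Ppp1r15a, of the stress response, at 549, 147, 441 and 462 CPM against 213, 47.2, 43.0 and 50.7 CPM (2.45 ± 0.36). Node source 1 was the highest node library for both, and for Ppp1r15a it exceeded NEG source 2. The list summed to 7042, 3428, 8179 and 7479 CPM in NEG and 3923, 2079, 2087 and 2078 CPM in NDLN. NEG source 2, the source of batch 2, was thus the lowest of the NEG libraries, below node source 1. These genes are also known to respond to tissue dissociation. Tumour and node cells may differ in that handling, so tissue and handling cannot be told apart here. The same limit holds for genes of other lists, Cd69, Rgs1, Nr4a1, Tnfaip3 and Socs3 among them. Calls were lost for Dusp1 (without 2, 3 or 4, adjusted p up to 0.174) and Ppp1r15a (without 4, 0.0605). The list had 7, 9, 5 and 6 genes that rose without source 1, 2, 3 and 4.

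NF-kB response genes were called in 5 of 17 cases, all higher (median 0.60). Tnfaip3, which encodes the feedback inhibitor A20, was at 501, 271, 805 and 739 CPM in NEG and 60.2, 68.2, 60.1 and 50.8 CPM in NDLN (3.24 ± 0.31, adjusted p = 0.00204). Bcl3, a nuclear partner of NF-kB, rose by 1.42 ± 0.14, its relative Nfkbiz by 1.14 ± 0.13 and the adhesion ligand Icam1 by 1.05 ± 0.13. All 4 genes kept the groups apart in every library. NEG source 2 was the lowest NEG library for each of the 4.

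Interferon response genes were the list with most calls: 17 of 34 rose, 1 fell and the median was 0.74. Ly6a, which encodes the surface antigen Sca-1 and has close relatives in the Ly6 family, was the gene of the list with the smallest adjusted p. It was at 621, 1009, 410 and 631 CPM in NEG and 71.3, 153, 67.2 and 102 CPM in NDLN (2.83 ± 0.12, adjusted p = 6.05e-05). The translation inhibitor Ifit2 was at 167, 161, 182 and 166 CPM against 79.4, 68.4, 69.8 and 95.3 CPM (1.19 ± 0.13), the antiviral GTPase Mx1 rose by 1.88 ± 0.32 and Rsad2, which encodes viperin, by 1.51 ± 0.28. With 1 source left out, 5 to 8 of these genes rose, and the calls of Mx1 (without 1 or 3, adjusted p up to 0.0803) and Rsad2 (without 2, 3 or 4, up to 0.106) were lost. Of 18 tested genes of antigen presentation 2 rose slightly, Psmb8 of the immunoproteasome by 0.41 ± 0.07 and B2m, the light chain of MHC class I, by 0.30 ± 0.05. Both were lost without 1 source (Psmb8 without any, adjusted p up to 0.0670; B2m without 2, 3 or 4, up to 0.107).

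Because IL10 and IL35 were the targets in the Tregs of these mice, receptors and STAT3 targets of the CD8 T cells were listed together. Of 20 tested genes of the IL-10, IL-35 and STAT3 pathways 7 rose and 2 fell, with a median of 0.57. Without source 1, 2, 3 and 4 the counts that rose were 6, 7, 4 and 4, and those that fell 0, 1, 1 and 0. Il10ra, the ligand-binding chain of the IL-10 receptor, was at 77.7, 61.2, 61.1 and 65.7 CPM in NEG and 36.2, 39.7, 15.5 and 27.4 CPM in NDLN (1.3 ± 0.24, adjusted p = 0.0241). Il12rb2, a chain shared by the receptors of IL-12 and IL-35, was at 24.2, 30.1, 52.4 and 73.0 CPM against 3.54, 2.51, 0.641 and 3.57 CPM (4.23 ± 0.58, adjusted p = 0.00727). Il6st encodes gp130, the chain of the IL-6 family that is also a reported IL-35 receptor chain, and fell: 99.3, 74.4, 203 and 117 CPM against 266, 190, 288 and 246 CPM (-1.03 ± 0.16). NEG source 3 overlapped the node for Il6st, and elsewhere the groups stood apart. Stat3 itself was at 409, 380, 506 and 456 CPM against 276, 294, 277 and 288 CPM (0.68 ± 0.10, adjusted p = 0.0113). Socs3, the feedback inhibitor induced by STAT3, was at 268, 185, 291 and 299 CPM against 55.6, 41.8, 80.3 and 53.9 CPM (2.25 ± 0.14, adjusted p = 3.05e-04), a separation held by every library. Fits of 3 sources lost Il10ra (without 1, 3 or 4, adjusted p up to 0.0872), Stat3 (without 3 or 4, up to 0.0568) and Il6st (without 1 or 4, up to 0.0546).

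In a list of common gamma chain receptors, their feedback genes and the IL-18 receptor chains, 8 of 19 tested genes rose and 0 fell (median 1.09). The IL-7 receptor gene Il7r, given above, was not called. Cish, which is induced by STAT5 and restrains T cell receptor signalling, was at 32.2, 37.9, 47.4 and 49.6 CPM in NEG and 8.43, 6.25, 7.13 and 12.3 CPM in NDLN (2.38 ± 0.27, adjusted p = 0.00344). The IL-18 receptor chains, which are not common gamma chain receptors, rose together, Il18rap by 2.13 ± 0.20 and Il18r1 by 1.34 ± 0.14. Bcl2, the survival factor that common gamma chain cytokines maintain, was at 985, 1253, 1136 and 719 CPM against 426, 432, 419 and 379 CPM (1.34 ± 0.11, adjusted p = 0.00130). Its antagonist Bcl2l11 (BIM) rose by 1.26 ± 0.18 and Pmaip1 (NOXA) by 2.39 ± 0.53 (lost without 1, 3 or 4, adjusted p up to 0.141), among 5 of 22 apoptosis genes that rose (3 without source 3 or 4). Gimap4, a GTPase of lymphocyte survival, was at 2139, 2100, 2430 and 2154 CPM against 1236, 1274, 1152 and 1197 CPM (0.92 ± 0.07), with no overlap.

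Start-site sequences of genes named above were searched for the letters that these factors bind, because genes that STAT, NF-kB or interferon signals are known to induce were among those called. The 250 bases before each RefSeq start on GRCm38.p6, the mm10 build, were read on both strands. STAT was searched as TTC and GAA with any 3 bases between, NF-kB as GGG and TTTCC with any 2 between, the interferon-stimulated response element as GAAA and GAAA with any 2 between, and AP-1 as TGA and TCA with any 1 between. A base could count toward more than 1 of these patterns. Each gene named here was searched for 1 of these patterns only. The 4 sequences with a match to that pattern are printed 5′ to 3′ toward the gene. Capitals mark that match (a match on the other strand reads as its reverse complement). The Tnfaip3 and Rsad2 windows also hold AP-1 letters, left in lower case. The Socs3 match begins 154 bases before the start, in chr11:117969367-117969616 on the minus strand, that of Il12rb2 at 123 bases in chr6:67376189-67376438 (minus), that of Tnfaip3 at 12 bases in chr10:19015411-19015660 (minus, the first of 2 entries) and that of Rsad2 at 120 bases in chr12:26456453-26456702 (minus).
Socs3: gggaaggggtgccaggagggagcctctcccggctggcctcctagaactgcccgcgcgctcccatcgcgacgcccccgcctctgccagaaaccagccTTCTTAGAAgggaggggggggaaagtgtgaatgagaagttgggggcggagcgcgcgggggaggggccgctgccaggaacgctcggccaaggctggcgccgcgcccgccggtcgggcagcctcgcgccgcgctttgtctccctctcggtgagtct
Il12rb2: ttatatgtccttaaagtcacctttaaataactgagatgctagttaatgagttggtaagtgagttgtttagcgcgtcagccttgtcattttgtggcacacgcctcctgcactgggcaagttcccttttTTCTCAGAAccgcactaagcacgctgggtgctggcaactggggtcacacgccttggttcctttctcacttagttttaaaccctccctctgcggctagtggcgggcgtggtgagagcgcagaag
Tnfaip3: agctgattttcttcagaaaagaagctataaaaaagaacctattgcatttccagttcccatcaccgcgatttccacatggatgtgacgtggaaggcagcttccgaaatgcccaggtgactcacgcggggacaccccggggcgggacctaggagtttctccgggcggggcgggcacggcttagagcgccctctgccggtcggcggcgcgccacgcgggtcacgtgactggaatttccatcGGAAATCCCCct
Rsad2: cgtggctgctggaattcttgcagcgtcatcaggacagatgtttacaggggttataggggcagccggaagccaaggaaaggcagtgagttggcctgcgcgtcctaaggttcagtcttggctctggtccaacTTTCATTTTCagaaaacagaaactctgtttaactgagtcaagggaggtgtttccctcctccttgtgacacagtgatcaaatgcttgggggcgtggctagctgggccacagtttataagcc
The STAT letters were not in the windows of Cish and Bcl3, nor the NF-kB letters in that of Icam1, the interferon element letters in that of Ifit2 or the AP-1 letters in that of Fosl2. By share of promoters with a match, STAT letters were in 9.40% of 234 genes that rose, 5.43% of 129 that fell and 6.10% of 8301 tested genes with a promoter entry. NF-kB letters were in 2.56%, 0.775% and 1.51% of the same sets, interferon element letters in 7.26%, 1.55% and 2.70%, and AP-1 letters in 9.40%, 4.65% and 3.83%. Over all 27025 genes of the promoter table the shares were 7.18%, 1.40%, 3.04% and 6.87%. These are descriptions of letters with no test, and a match is not a shown binding site.

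Of 28 genes of glycolysis and hypoxia 9 rose and 1 fell, with a median of 0.67. Gapdh was at 416, 654, 402 and 575 CPM in NEG and 202, 331, 210 and 268 CPM in NDLN (1.08 ± 0.08, adjusted p = 0.00114). Tpi1 rose by 1.53 ± 0.14, the phosphofructokinase Pfkp by 0.89 ± 0.10 and Gpi1 by 0.79 ± 0.09, and no NEG library overlapped the node for any of these 4 enzymes. Pdk1, which keeps pyruvate out of mitochondria and is a hypoxia-induced gene, fell by 0.60 ± 0.11 (lost without any 1 source, adjusted p up to 0.0851). The list had 7 genes that rose with any 1 source left out. Of 37 tested oxidative phosphorylation genes 1 rose (Cox8a, 0.49 ± 0.11, lost without any 1 source, adjusted p up to 0.147), and the median was 0.21. The cholesterol exporters Abca1 (-2.60 ± 0.39) and Abcg1 (-1.77 ± 0.18) fell, as did the desaturase Scd2 (-1.25 ± 0.25), while the synthesis enzyme Cyp51 rose by 1.42 ± 0.26, in a list with 3 of 25 genes higher and 3 lower (0 higher without source 1 or 3, 1 lower without source 4). Calls were lost for Abca1 (without 4, adjusted p = 0.0507), Scd2 (without 2, 3 or 4, up to 0.0946) and Cyp51 (without any, up to 0.0868).

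Proliferation genes differed widely between sources. All 28 tested DNA replication genes had a positive log2 fold change (median 0.78), and 3 rose: Mcm4 by 0.74 ± 0.13, Mcm2 by 0.99 ± 0.19 and Lig1 by 1.91 ± 0.42 (1 gene rose without source 1 or 3). All 30 mitosis genes were positive as well (median 1.71), and 0 passed by edgeR, against 10 by DESeq2, another count model. The mitosis genes summed to 1438, 3412, 456 and 833 CPM in NEG and 137, 896, 414 and 574 CPM in NDLN. Sources 1 and 2 carried the difference, source 3 was nearly level, and source 2 was the highest in both tissues. Mki67, the marker of cycling cells, was at 211, 405, 95.1 and 133 CPM against 0, 124, 69.0 and 102 CPM (1.90 ± 1.53, adjusted p = 0.582). Calls were lost for Mcm4 (without 1 or 3, adjusted p up to 0.0713), Mcm2 (without 1 or 3, up to 0.117) and Lig1 (without 2, 3 or 4, up to 0.112).

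**Figure D3:**
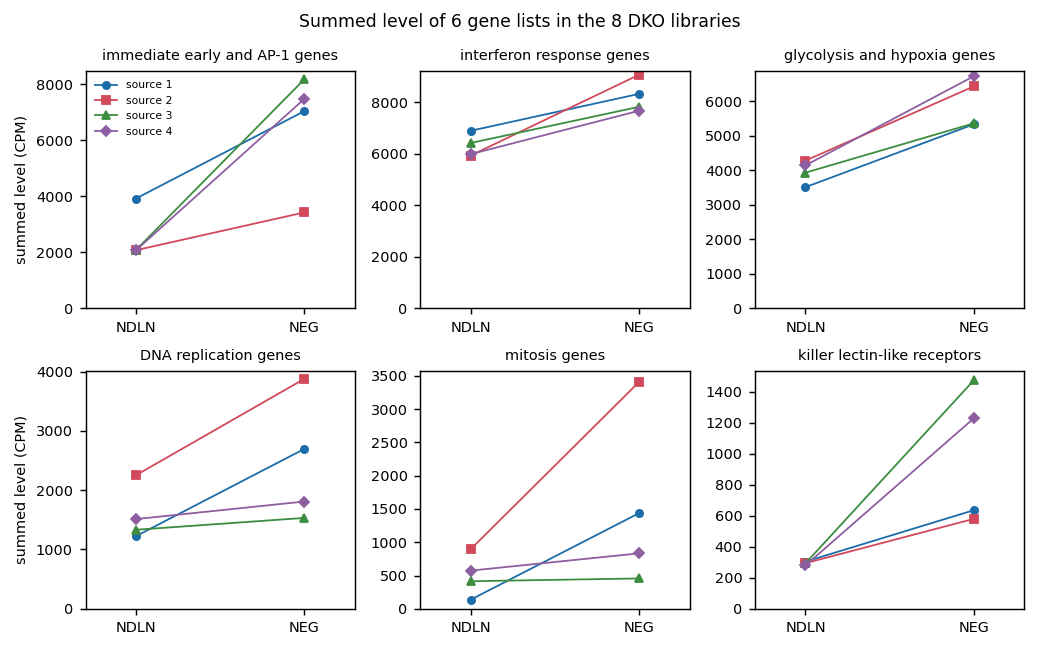
Summed CPM of 6 gene lists in the 4 NDLN and 4 NEG libraries, each axis starting at 0, with a line for each source. Interferon and glycolysis sums are higher in NEG in each source, the immediate early sum of NEG source 2 is the lowest of the 4 NEG libraries (3428 CPM), and mitosis genes range from 456 to 3412 CPM in NEG.

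Costimulatory and signalling genes showed smaller changes. Tnfrsf18 (GITR) was at 223, 208, 258 and 261 CPM in NEG and 112, 115, 130 and 134 CPM in NDLN (1.01 ± 0.10, adjusted p = 0.00219). Slamf7 rose by 1.87 ± 0.38, Tnfsf8 by 0.68 ± 0.11, and Cd27, a costimulatory receptor of naive and memory cells, fell by 0.51 ± 0.09. In that list 4 of 22 tested genes rose and 1 fell, and without source 1, 2, 3 and 4 there were 1, 4, 1 and 1 that rose and 0 that fell. Of 31 genes of T cell receptor signalling 4 rose and 3 fell: the adaptor Sh2d2a rose by 1.08 ± 0.11, the phosphatase Ptpn22 by 0.83 ± 0.10 and the ubiquitin ligase Cblb by 0.84 ± 0.16, all 3 known modulators of the signal, and the lipid kinase Dgka fell by 0.87 ± 0.10. Of that list 2 rose without source 3, and 1 fell without source 1, 3 or 4. Of 13 tested genes of the purinergic and adenosine list 3 rose and 2 fell. With any 1 source left out 1 to 2 rose and 0 to 1 fell. P2ry10, listed there by its name alone, was at 170, 209, 282 and 201 CPM against 73.3, 51.1, 57.3 and 36.4 CPM (2.07 ± 0.21). The NAD-consuming enzyme Cd38 rose by 2.80 ± 0.59 and the ADP-ribosyltransferase Art2b fell by 1.51 ± 0.32. Of 15 TGF-beta pathway genes 1 was called, the co-receptor Tgfbr3, at 4.47, 11.3, 14.5 and 5.97 CPM against 47.4, 37.0, 69.0 and 34.9 CPM (-2.40 ± 0.32). Heat shock and unfolded protein genes rose in 3 of 26 cases by small amounts, and in 1 without source 4 (Hspa8 by 0.54 ± 0.06, Dnajb1 by 0.62 ± 0.13 and Hspa5 by 0.51 ± 0.11), and 0 of 9 metallothionein and zinc genes passed by edgeR, with 1 by DESeq2. Calls were lost with 1 source left out for Slamf7 (1, 3 or 4; adjusted p up to 0.127), Tnfsf8 and Cd27 (any; 0.0574 and 0.108), Cblb (2, 3 or 4; 0.0900), Cd38 (1, 3 or 4; 0.141), Art2b (2, 3 or 4; 0.138), Dnajb1 (1, 2 or 4; 0.123) and Hspa5 (1, 3 or 4; 0.128).

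Markers of cells outside the gate were low. Of 11 CD8 T cell markers 1 was called, Cd8b1, which fell by 0.64 ± 0.11 (2049 ± 52.1 CPM in NDLN and 1282 ± 263 in NEG, SD, n = 4; lost without 2, 3 or 4, adjusted p up to 0.0708). Foxp3, the Treg factor, was at most 0.170 CPM in NEG. The B cell genes Ms4a1 and Pax5 and the myeloid genes Adgre1, C1qa and S100a8 were at 0 in all 8 libraries. Single members of those lists nonetheless rose, namely Cd22 by 2.19 ± 0.43, Fcer1g by 5.28 ± 1.06 with 71.7 CPM in NEG source 3 and 7.65 to 12.8 CPM in the other NEG libraries, and Itgax above. The calls of Cd22 (without any 1 source, adjusted p up to 0.108) and Fcer1g (without 3 or 4, up to 0.140) were lost in fits of 3 sources. Summed myeloid markers were 248 to 341 CPM in NEG and 264 to 298 CPM in NDLN, mostly Ctss, summed B cell markers 41.7 to 63.8 and 48.8 to 81.8 CPM, and summed dendritic cell and MHC class II markers 12 to 82.7 and 12.7 to 33.6 CPM. Pigment cell markers summed to 11.3 to 27.7 CPM in NEG and to 29.3 to 39.4 CPM in the node.

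Over all 5 DKO CD8 populations the called genes followed different courses. The other populations, with 4 libraries each, are INT (intermediate PD-1), SP (high PD-1 without TIM-3) and DP. Of the 313 genes that rose, the mean CPM was highest in NEG for 126, in DP for 105, in SP for 49 and in INT for 33, and 89 had a DP mean below that of the node. Since these genes were chosen for being high in NEG, that split favours NEG and is a description. Socs3 averaged 57.9 ± 16.1 CPM (SD, n = 4) in NDLN, 260 ± 52.2 in NEG, 144 ± 59.1 in INT, 46.2 ± 31.7 in SP and 8.84 ± 4.32 in DP. Bcl2 had the same shape, at 414 ± 24, 1023 ± 230, 553 ± 197, 225 ± 73.7 and 80.8 ± 16.4 CPM in that order, and Cxcr5 also, at 29.9 ± 12.3, 83.4 ± 15.4, 41.7 ± 5.38, 28.1 ± 17.6 and 2.10 ± 2.08 CPM. The DP libraries of all 3 genes lay below every node library, and the ranges of NEG and INT overlapped for Bcl2 and Socs3. Gene by gene, Cd163l1 (153 CPM in NEG, 70.2 in INT) and 5830411N06Rik (152 and 53.1) had the largest ratio of NEG to the next population among called genes with a NEG mean of at least 50 CPM, a ranking made after the values were seen.

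Other genes ran on in one direction. Ccl3 averaged 14.3 ± 4.25 CPM in NEG, 44.7 ± 25.2 in INT, 138 ± 40.1 in SP and 898 ± 824 in DP, and Tigit 33.1 ± 18.4, 54.5 ± 27.7, 183 ± 54.9 and 197 ± 40.4. Neighbouring ranges overlapped for NEG and INT in both genes and for SP and DP in Tigit. Gzmb was at 334 ± 79.2, 488 ± 209, 317 ± 317 and 1730 ± 1420 CPM, so the NEG, INT and SP libraries overlapped. Tbx21 was high in all 4 tumour populations: it averaged 17.8 ± 3.32 CPM in the node and 82.0, 68.3, 80.3 and 85.0 CPM in NEG, INT, SP and DP. Of the 169 genes that fell, the lowest mean was in DP for 137 and in NEG for 24. Lef1 went from 597 ± 25.1 CPM in NDLN through 337 ± 27.0, 245 ± 70.3 and 86.6 ± 20.2 to 40.9 ± 15.4 CPM in DP. Dapl1 averaged 251 ± 50.4 CPM in NDLN, 69.5 ± 17.7 in NEG, 80 ± 30 in INT, 68.3 ± 13 in SP and 5.81 ± 6.33 in DP, with the NEG, INT and SP ranges overlapping. Itgae was different, having already dropped to 24.2 ± 7.26 CPM in NEG, and INT (54.1 ± 41.7), SP (12.6 ± 4.64) and DP (12.5 ± 15.6) overlapped with NEG.

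**Figure D4:**
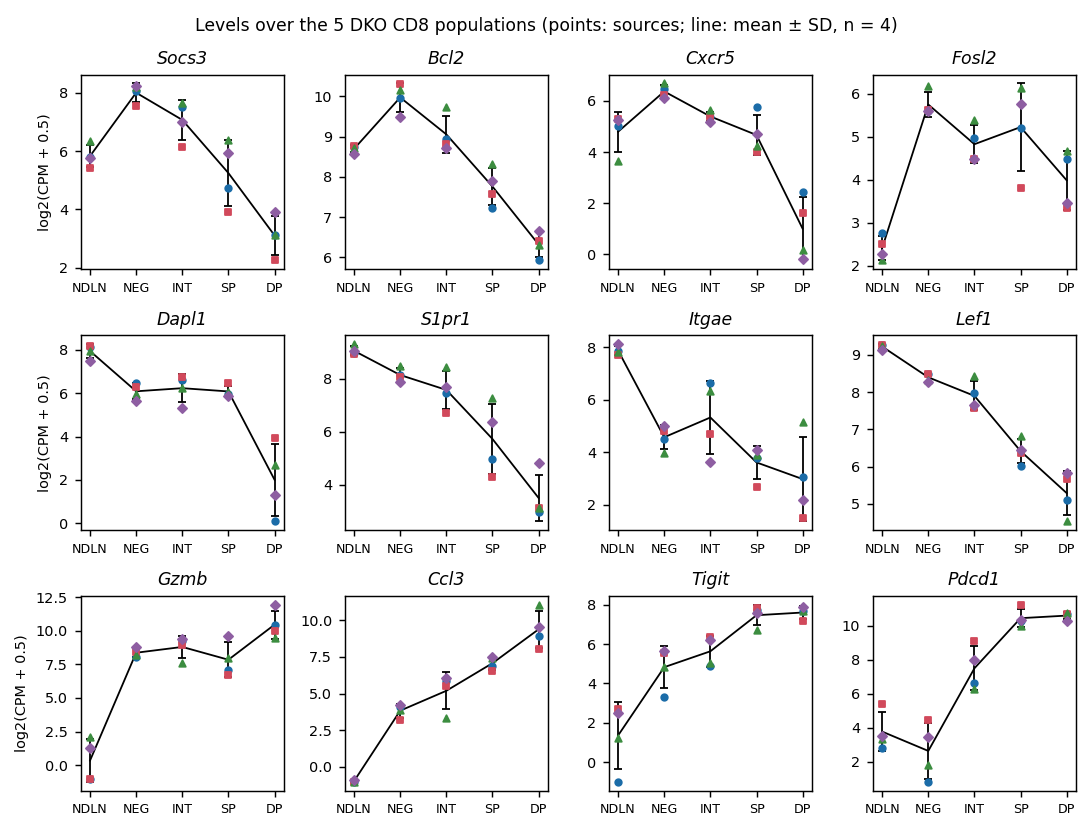
Level of 12 genes as log2(CPM + 0.5) in the node and the 4 tumour populations of DKO mice, with points for sources and a line through the mean ± SD (n = 4). Socs3, Bcl2 and Cxcr5 are highest in NEG and fall below the node in DP, Lef1 falls stepwise, Dapl1 is level over NEG, INT and SP, and Ccl3, Tigit and Pdcd1 reach their highest means in DP.

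Whether the NEG to node change differed by genotype was tested with the 24 NEG and NDLN libraries of all 4 genotypes (12 sources: 4 DKO, 3 yfp, 3 Ebi3L and 2 Il10) in 1 edgeR fit with the source as a block, over 13144 genes. The difference between DKO and each other genotype passed for 0 genes (0%) in all 3 comparisons. At an unadjusted p below 0.05 there were 233 genes for yfp, 378 for Ebi3L and 819 for Il10, and DESeq2 called 5, 8 and 125. The 5 against yfp were Uhrf1bp1, Ndnf, Pyroxd2, Ttc39c and Popdc2, named after their values were seen, and edgeR gave each an adjusted p of 1. The SE of a difference had a median of 0.55 for yfp, 0.55 for Ebi3L and 0.63 for Il10 on the log2 scale. Missing the threshold does not show that the genotypes were alike. Genotype is also partly tied to batch in the labels.

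The DKO changes were seen with the same sign elsewhere. Of the 482 genes called in DKO, 478 had the same sign in yfp, 474 in Ebi3L and 453 in Il10, against 69.0%, 65.8% and 63.3% of all 11115 tested genes. The node libraries are separate for each genotype. In the fit of 24 libraries 415 genes passed in DKO, 135 in yfp, 126 in Ebi3L and 132 in Il10, with more DKO sources than of any other genotype. S1pr1 and Gzmb missed the threshold for DKO in that fit (adjusted p = 0.125 and 0.0576). Socs3 had log2 fold changes of 2.24 ± 0.19 in DKO, 2.40 ± 0.23 in yfp, 2.97 ± 0.23 in Ebi3L and 1.38 ± 0.27 in Il10. The DKO minus Ebi3L difference of Socs3 was -0.73 ± 0.28 and the DKO minus Il10 difference 0.87 ± 0.32, with adjusted p-values of 1 and 0.785. Bcl2 was at 1.33 ± 0.12, 1.14 ± 0.13, 0.89 ± 0.13 and 0.85 ± 0.16 in the same order, and passed in each genotype.

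A few effector genes had larger estimates in DKO, none past the test. The genes given here, Pdcd1 aside, were called in DKO in the fit of 8 libraries, a choice that favours large DKO estimates. Over all 482 genes called in DKO the median absolute log2 fold change was 1.07 in DKO (fit of 8 libraries). In the fit of 24 libraries it was 0.82 in yfp, 0.75 in Ebi3L and 0.88 in Il10. Over all 11115 tested genes these medians were 0.30, 0.30, 0.29 and 0.46. Ccl4 was at 5.50 ± 1.02 in DKO, 2.34 ± 1.11 in yfp, 2.81 ± 1.05 in Ebi3L and 4.91 ± 1.38 in Il10, and the DKO minus yfp difference was 3.16 ± 1.5 (adjusted p = 1, edgeR). Gzma was at 6.03 ± 1.04, 4.25 ± 1.05, 4.16 ± 1.09 and 3.89 ± 1.25, Cd160 at 1.48 ± 0.33, 0.68 ± 0.39, 0.34 ± 0.38 and 0.96 ± 0.46, and Il12rb2 at 4.24 ± 0.75, 3.89 ± 0.86, 1.76 ± 0.77 and 3.00 ± 1.11. Itgae fell by 3.27 ± 0.38 in DKO, 2.42 ± 0.45 in yfp, 1.71 ± 0.41 in Ebi3L and 3.00 ± 0.54 in Il10. Pdcd1 was the named gene whose estimate had another sign in DKO (-1.2 ± 0.79) than in yfp (1.32 ± 0.96), Ebi3L (0.55 ± 0.90) and Il10 (0.53 ± 1.76), a difference to yfp of -2.52 ± 1.24 (adjusted p = 1, edgeR). Since cells were gated on its protein, that value describes the sorted libraries.

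**Figure D5:**
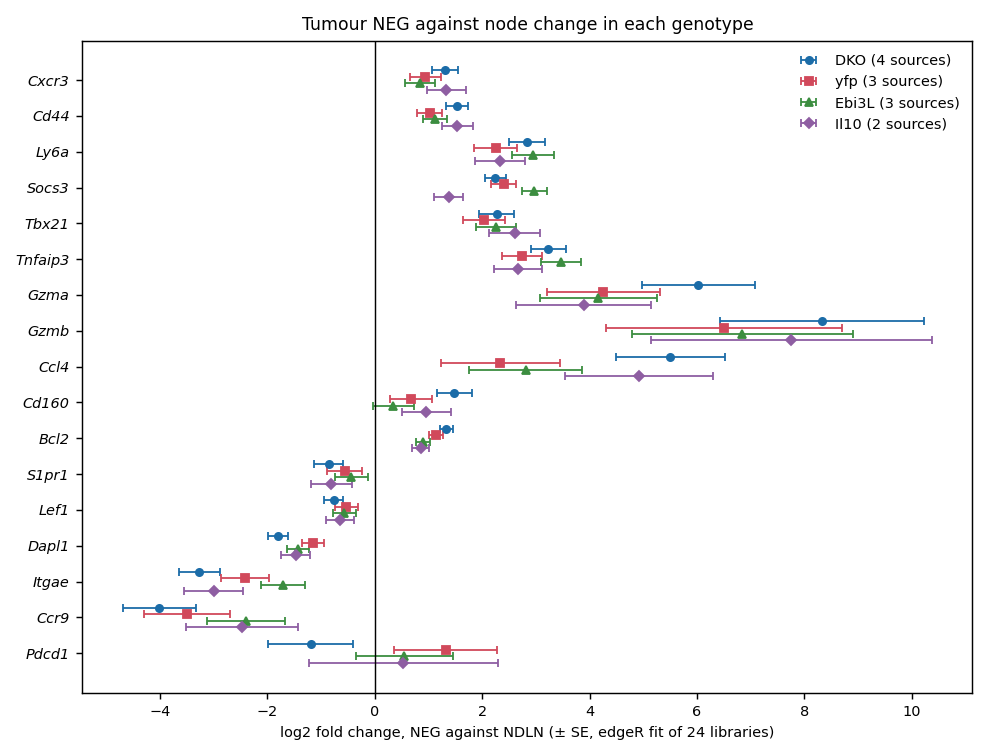
Log2 fold change of NEG against NDLN ± SE in DKO, yfp, Ebi3L and Il10 libraries for 17 genes, from 1 edgeR fit of 24 libraries. The 4 genotypes lie on the same side of 0 for each gene but Pdcd1, and the DKO estimate is the largest for Gzma, Gzmb and Ccl4 (8.32 ± 1.90 for Gzmb). Every gene but Pdcd1 was called in DKO in the fit of 8 libraries, a choice that favours large DKO estimates. In the fit of 24 libraries drawn here, S1pr1 and Gzmb missed the threshold for DKO.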

How the data were processed

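The deposited values are whole-number read counts per gene for 23420 genes. Per the submitters' processing notes, STAR, featureCounts of the Subread package and limma were used with mm10, and the sources used here give no version, annotation or strand setting, so reads of overlapping antisense genes and of near-identical copies may be mixed. The authors deposited, too, a table of filtered log2 expression values for 10150 genes in the CD8 libraries, which served 1 alternative. Genes were filtered by filterByExpr, scaled by TMM and tested with edgeR 4.0.16 in R 4.3.3 (robust quasi-likelihood fit, source as block, Benjamini-Hochberg threshold 0.05). In 1 simulated set with 200 changed genes, the main test called 68% of 4-fold and 47% of 2-fold changes. Of its calls 6.5% were false. The test of DKO against yfp called 46% of 4-fold and 6% of 2-fold changes in its own simulated set, with 7.14% of calls false. CPM values use library totals and no TMM factor. DESeq2 1.42.0 and limma 3.58.1 served as alternatives. Every column belonged to a sample of the series.

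A source is a set of libraries named alike in the deposited descriptions, which pairs the NEG and NDLN libraries. The correlation of their deviations from the group means was 0.06 to 0.22 within sources and -0.17 to 0.07 between them, and 2 of 4 pairs exceeded 0.1. Counts of the 12 pairs of same-group libraries differed by a chi-square of 58.1 to 157 per gene, so no pair agreed within sampling noise. Reads carried no molecular identifiers, so intervals and floors cover counting error only.

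The members, the 39 gene lists (28 of function, 11 of cell type markers) and the 41 genes named in any case were chosen with earlier results of these data known. The other named genes were the 10 largest changes in each direction among called genes (same direction in all 4 sources and a mean of at least 10 CPM in the higher group) and, per function list, up to 4 called genes with the largest change and the largest change against the list's majority. Of 747 list entries 739 matched the table. Promoters came from the RefSeq table of GRCm38.p6. Values of some list genes are not reported here.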

Additional observations from a re-analysis of the deposited data

Results flagged for a closer look

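In 10 of 140 groups of 4 libraries looked at (the named genes of highest priority and the summed marker lists), 1 library stood apart from the other 3 by Dixon's criterion for 4 samples, and chance alone flags about 1 group in 20. In NDLN source 2, Pdcd1 was at 42.2 CPM (others 6.51 to 10.9), Cd44 at 91.9 CPM (others 49.7 to 52.9) and Gzmk at 2.76 CPM (others 0). In NDLN source 3, Zfp719 was at 131 CPM (others 38.1 to 53.4) and Itga1 at 2.05 CPM (others 0). In NEG source 4, Tbx21 was at 97.6 CPM (others 75.8 to 78.6), Prf1 at 109 CPM (others 67.1 to 68.5) and Prdm1 at 24.2 CPM (others 4.55 to 5.90). In NEG source 3, Cd244 was at 34.1 CPM (others 2.67 to 5.08). In NEG source 2, the summed γδ T cell markers stood at 456 CPM (others 247 to 268). Source 2 is the source of batch 2 in the labels.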

How the results depend on the processing

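The main count of 482 genes was 480 with DESeq2's size factors, 485 with no filter on low counts, 627 with limma on the deposited log2 values and 603 with batch in place of the source. It was 1578 with DESeq2 (953 higher, 625 lower) and 895 when all 20 DKO libraries entered the fit (628 higher, 267 lower). Without the replicate block it was 401, of which 349 were among the 482. Leaving out a source, with 3 pairs left, gave 228 to 346 genes, and without source 2, the one of batch 2, it gave 346. Of 106 named genes that were called, 52 were called in every such fit and 46 in every alternative fit. S1pr1, Lef1, Dtx1, Ampd1, Ifit2 and Hspa8 were called in every fit of 3 sources but not in every other alternative. Of 124 tested named genes 0 changed sign in a call. For the difference from other genotypes, DESeq2 called 5 genes (yfp), 8 (Ebi3L) and 125 (Il10) where edgeR called 0, and the fit without the replicate block called 2 for Il10 (Kbtbd7 and Rgmb). The cause was not tested. Of 30 mitosis genes edgeR called 0 with 4 pairs and DESeq2 10. A node level of 0 counts lies below 0.122 to 0.156 CPM.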
